A study of Arabidopsis thaliana with 12 samples.

Results

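The genes compared here are the 227 Arabidopsis loci that the authors listed as changed from wild type both in an LBD29 overexpression line and in a MYB2-SRDX line. They were taken by locus identifier from the authors' deposited tables, as every locus present in both the LBD29-OE table (802 genes) and the MYB2-SRDX table (1045 genes). The shared loci are 28.3% of the first list and 21.7% of the second, out of 2424 different genes over the 3 tables of the series. Since only called genes were listed, absence from a table does not show that a locus kept its level.

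RNA was sequenced from roots of 8-day-old seedlings grown in the dark on Murashige and Skoog medium, a mineral medium for plants, with 3 libraries per genotype. Col is the untransformed Col-0 wild type. LBD29-OE carries Pro35S:LBD29-6Gly, and MYB2-SRDX carries Pro35S:MYB2-SRDX, which the labels call a dominant negative. The series also holds Pro35S:MYB2 (MYB2-OE), whose libraries do not enter the comparisons below. The 35S promoter drives expression in nearly all plant tissues, so neither transgene is limited to the cells in which the native gene is active. The labels do not say how many independent transformants stand behind each line, or whether the 3 libraries of a genotype came from separate cultures, so p-values measure the spread between these libraries, which may be technical. The MYB2-SRDX libraries are named by the digit that ends their column, because the column names differ from the sample titles.

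LBD29 is a plant transcription factor of the LATERAL ORGAN BOUNDARIES DOMAIN family, known for its part downstream of auxin response factors when lateral roots are started. MYB2 is a MYB-family transcription factor known from responses to dehydration and abscisic acid (ABA), the hormone of water deficit. SRDX is a short repression peptide which, fused to a transcription factor, turns it into a repressor of the genes it binds. The design thus sets a line with more of one factor beside a line in which another factor is fused to a repressor, each against the same wild type.

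Both transgenes were seen at the level of RNA. LBD29 was at 3.08, 2.55 and 3.04 FPKM (fragments scaled to transcript length and to the mapped total) in Col and at 557.7, 603.2 and 477.3 FPKM in LBD29-OE. The means were 2.89 ± 0.295 and 546 ± 63.8 FPKM (SD, n = 3), an exact two-sided permutation p of 0.1, the smallest that 3 against 3 libraries allow. MYB2 was at 1.01, 0.48 and 0.59 FPKM in Col and at 445.3, 537.7 and 532.6 FPKM in MYB2-SRDX, with means of 0.693 ± 0.280 and 505 ± 52.0 FPKM (SD, n = 3) and the same exact p of 0.1. MYB2 was not among the genes called in LBD29-OE, where the authors' deposited table gives a log2 fold change of -0.42 with a Q-value of 0.104. The iron transporter gene IRT1 and the iron reductase gene FRO2, which mark root epidermis, were at 151, 150.2 and 185 and at 26.5, 26.01 and 30.5 FPKM in Col. None of the 15 listed seed marker genes was among the 227 loci. Since only called genes have values, that absence does not show whether seed tissue was in the samples.

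The signs of the authors' fold changes put the 227 loci in 4 classes. In 112 loci LBD29-OE was lower and MYB2-SRDX higher than Col, in 34 LBD29-OE was higher and MYB2-SRDX lower, 53 were lower in both lines and 28 were higher in both. The median log2 fold changes in the authors' deposited tables were -1.60 for LBD29-OE and 1.46 for MYB2-SRDX in the class of 112, and 1.38 and -1.76 in the class of 34. Among the loci lower in both lines they were -1.48 and -1.81, and among those higher in both 2.11 and 2.14. The comparisons share their Col libraries, so a Col library that stands high or low moves a locus the same way in both of them, and no agreement between the lines is read from these counts.

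**Figure D1:**
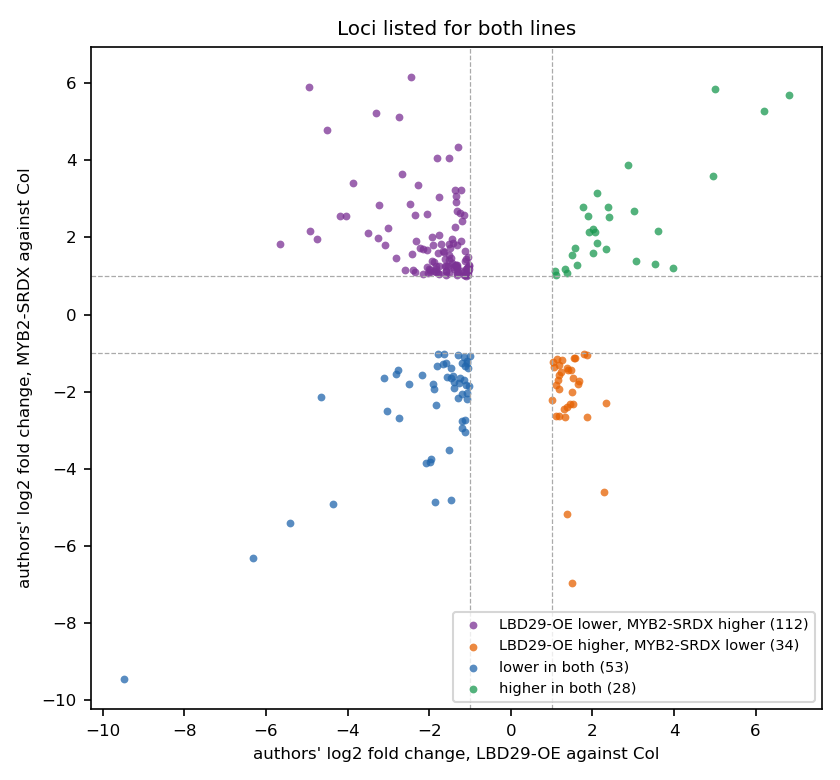
Authors' log2 fold change against Col in LBD29-OE (horizontal axis) and in MYB2-SRDX (vertical axis) for the 227 loci listed for both lines; each point is 1 locus, coloured by direction class, and the dashed lines mark the authors' threshold of 1. The class lower in LBD29-OE and higher in MYB2-SRDX holds 112 points, and the space between the dashed lines is empty because the tables list called genes only.

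Both tables were cut at an absolute log2 fold change of 1 and a Q-value of 0.001. Just inside the first limit were AT3G53960 at -1.002, AT2G05510 at -1.02 and HSP18.2 at 1.02 in LBD29-OE, in the authors' deposited table. Just outside it were AT2G16630 at 0.995, SULTR3;5 at 0.98 and ATL8 at -0.98 in LBD29-OE, in the same source. A further 82 genes of the MYB2-SRDX table were beyond an absolute log2 of 1 in LBD29-OE and were not listed there, with Q-values from 0.001003 upward in the authors' deposited table.

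The levels were mostly low. The highest group mean was at least 10 FPKM in 72 of the 227 loci and under 1 FPKM in 33, and 3 loci had a value above 0 in 1 of the 9 libraries only. In 154 of the 227 loci (67.8%) every library of both lines lay clear of every Col library on the called side. That count was 171 without LBD29-OE library 2 and MYB2-SRDX library 1, where leaving libraries out can only keep or raise it. The loci were also chosen as called against Col in these libraries. MYB2-SRDX library 1 stands apart from its group, and LBD29-OE library 2 does so less. Over the 227 loci on the log2(FPKM + 1) scale, MYB2-SRDX library 1 correlated at 0.802 and 0.796 with libraries 2 and 3, which correlated at 0.989. LBD29-OE library 2 correlated at 0.929 and 0.925 with libraries 1 and 3, which correlated at 0.961. MYB2-SRDX library 1 was over 3 times the next highest MYB2-SRDX library in 52 loci, against 1 locus each for libraries 2 and 3, and LBD29-OE library 2 did the same in 8 loci, library 3 in 5 and library 1 in 0. Results that rest on them are given with and without them.

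**Figure D2:**
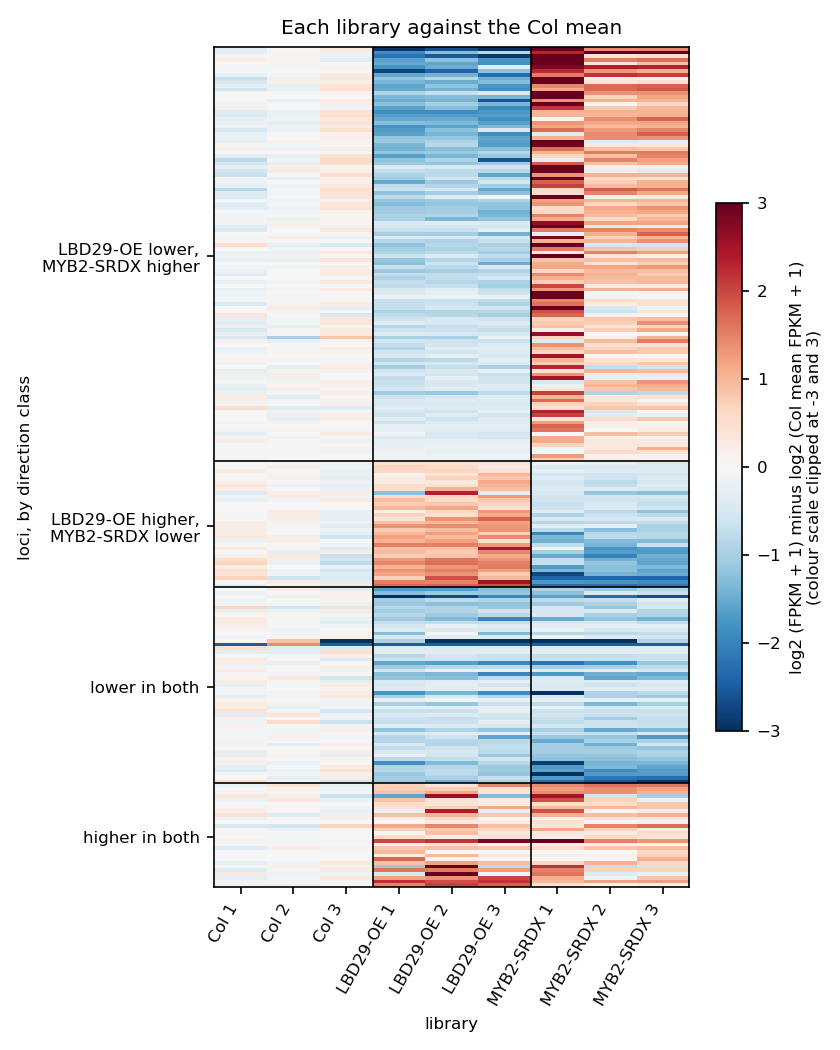
Log2 of FPKM + 1 in each of the 9 libraries minus log2 of the Col mean FPKM + 1, for all 227 loci (rows) grouped by direction class; the colour scale is clipped at -3 and 3. MYB2-SRDX library 1 holds the darkest red cells of the class lower in LBD29-OE and higher in MYB2-SRDX, and 40 of its 112 loci had that library over 3 times the next.

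The lines were compared directly with limma on log2(FPKM + 1), with the Col, LBD29-OE and MYB2-SRDX libraries in one fit and Benjamini-Hochberg adjustment over the 227 loci. At an adjusted p under 0.05, LBD29-OE was higher than MYB2-SRDX in 42 loci (18.5%) and lower in 92 (40.5%), 134 in all (59.0%). Of these, 33 fell in the class of 34 and 90 in the class of 112, where the way the loci were chosen already separates the lines, so nothing is read from those counts. The split moved with the scale used. The median difference over the 227 loci was -0.56 on the log2 scale. With the libraries scaled to equal sums over the 191 loci above 0 in every library it was 0.00, and the calls were 70 higher and 50 lower. The summed loci were themselves selected, many of them as higher in MYB2-SRDX. Equal sums can therefore take out part of the difference for which they were chosen. All 3 LBD29-OE libraries lay above all 3 MYB2-SRDX libraries in 48 loci (21.1%) and below them in 112 (49.3%). Lines did not overlap in 109 of the 112 loci, in 33 of the 34, in 14 of the 53 lower in both and in 4 of the 28 higher in both.

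A stretch of promoter is shown for LEA7, a gene described below whose levels in the lines were far apart, since the classes can be set beside the letters upstream of their genes. It is the 250 bases upstream of the annotated gene start, written 5′ to 3′ on the gene's strand and taken from the RefSeq genome (build TAIR10.1). Capitals mark ACGTG, the core of the abscisic acid response element, on either strand with overlaps counted.
LEA7 (chr1:19619474-19619723, plus strand): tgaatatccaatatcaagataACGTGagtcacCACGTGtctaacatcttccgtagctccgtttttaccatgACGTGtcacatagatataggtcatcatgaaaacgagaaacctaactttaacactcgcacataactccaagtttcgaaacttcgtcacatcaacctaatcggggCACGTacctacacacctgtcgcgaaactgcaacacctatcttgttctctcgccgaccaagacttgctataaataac

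The LEA7 window held 5 matches to ACGTG, and those of LEA4-5, LTI65, AT3G02480 and HAI3 held 4, 4, 3 and 2. Such counts were not limited to these genes. In the same class the clock gene PRR9 held 5, AT1G07500 and AT2G22760 held 4 each and the ABA-responsive MYB96 held 0. ABCF2, lower in both lines, and AT1G36622, lower in LBD29-OE and higher in MYB2-SRDX, held 4 each. Over the 27437 windows of all protein-coding genes 22.9% held ACGTG, and in the classes it was 44.1% of the 34, 35.8% of the 53, 22.3% of the 112 and 17.9% of the 28. AATATCT, the core of the evening element of clock genes, was in 10% of all windows, in 17.0% of the 112, in 8.82% of the 34, in 7.55% of the 53 and in 14.3% of the 28. TAACTG, a MYB2 recognition sequence, was in 8.12% of all windows and in 1.79, 8.82, 5.66 and 3.57% of the classes of 112, 34, 53 and 28. GCGGCG, a sequence bound by LBD proteins, was in 1.56% of all windows and in 1.79, 0, 1.89 and 0% of the same classes. A heat shock element pair, GAANNTTC, was in 9.55% of all windows, in 16.1% of the 112, in 8.82% of the 34, in 11.3% of the 53, in 7.14% of the 28 and in 0 of the 4 listed heat genes. All of these were counted on both strands, and a match is a string of letters, not a binding site.

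The 112 loci lower in LBD29-OE and higher in MYB2-SRDX include genes of the evening clock, of indole glucosinolate and camalexin synthesis and of glutathione transfer. Their highest group mean had a median of 6.94 FPKM and reached 1645 FPKM. In such bulk root samples a lower level in each cell and fewer of the cells that express a gene cannot be told apart. In 84 of the 112 loci MYB2-SRDX libraries 2 and 3 lay above every Col library. In 40 of the 112, MYB2-SRDX library 1 was over 3 times the next, and in 26 of these libraries 2 and 3 were not both above every Col library.

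The evening genes had no overlap between groups. All 3 listed day and evening clock genes found in both tables, of 22 on the list, were lower in LBD29-OE and higher in MYB2-SRDX. In the authors' deposited tables their median log2 fold changes were -2.03 for LBD29-OE and 1.16 for MYB2-SRDX, beside -1.60 and 1.46 for their class. Against the class, the median of the clock genes was thus larger in size in LBD29-OE and smaller in MYB2-SRDX. ELF4, a subunit of the evening complex that represses other clock genes at night, was at 83.8, 79.02 and 125 FPKM in Col, 39.2, 38.01 and 30.2 in LBD29-OE and 244, 215 and 216 in MYB2-SRDX. The groups of ELF4 did not overlap, and the mean in MYB2-SRDX (225 ± 16.4 FPKM) was 6.29 times that in LBD29-OE (35.8 ± 4.89 FPKM; SD, n = 3). JMJD5, a jumonji-domain protein with evening expression, was at 15.04, 17.5 and 28.1 FPKM in Col, 4.88, 4.77 and 5.29 in LBD29-OE and 41.9, 42.8 and 42.2 in MYB2-SRDX. COR27, a cold-regulated gene with a part in the clock, was at 3.73, 4.56 and 7.89 FPKM in Col, 1.04, 0.99 and 1.08 in LBD29-OE and 12.02, 11.8 and 12.4 in MYB2-SRDX. Libraries of each transgenic line lay close together for JMJD5 and COR27, and the spread within Col was wider, with library 3 the highest. The mean in MYB2-SRDX was 8.495 times that in LBD29-OE for JMJD5 and 11.6 times for COR27.

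PRR9, a pseudo-response regulator that peaks after dawn, was the 1 dawn gene of 17 listed that stood in both tables, and it went the other way. Its levels were 0.92, 0.94 and 0.91 FPKM in Col, 2.75, 3.25 and 1.67 in LBD29-OE and 0.26, 0.45 and 0.3 in MYB2-SRDX, without overlap between groups. The time of day of harvest is not given in the labels, and its part in the clock genes' levels was not tested.

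Indole glucosinolates are defence compounds of the cabbage family, and their indole ring is hydroxylated by CYP81F enzymes and then methylated by the IGMT enzymes. Of 19 listed genes of this pathway 4 stood in both tables, all lower in LBD29-OE and higher in MYB2-SRDX, and the authors' deposited tables give them medians of -2.64 and 2.39 on the log2 scale. As a ratio of MYB2-SRDX to Col mean FPKM the median was 5.25, and 1.65 without MYB2-SRDX library 1. IGMT3 was at 132, 112 and 106 FPKM in Col, 37.5, 47.8 and 29.8 in LBD29-OE and 515, 202 and 229.7 in MYB2-SRDX. IGMT2 was at 17.3, 17.03 and 14.3 FPKM in Col, 2.71, 1.99 and 1.32 in LBD29-OE and 184, 21.2 and 23.3 in MYB2-SRDX. IGMT4 was at 11.2, 14.3 and 18.1 FPKM in Col, 1.01, 1.47 and 0.19 in LBD29-OE and 171, 40.4 and 40.95 in MYB2-SRDX. All 3 groups were separate in each of the IGMT genes, and MYB2-SRDX library 1 was the highest in each. These 3 genes are neighbours on chromosome 1 with similar sequences, and how the authors assigned reads between such copies is not given in the sources used here. CYP81F2, the hydroxylase, was at 2.18, 4.14 and 4.25 FPKM in Col, 0.74, 0.61 and 0.85 in LBD29-OE and 99.02, 4.83 and 5.35 in MYB2-SRDX. Its MYB2-SRDX libraries 2 and 3 were just above the highest Col library, and the group mean of 36.4 FPKM rests on library 1.

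Camalexin is the indole phytoalexin of Arabidopsis. The 5 members of the camalexin and defence list, of 25, were lower in LBD29-OE and higher in MYB2-SRDX, with medians of -2.45 and 3.66 in the authors' deposited tables. The median ratio of MYB2-SRDX to Col mean FPKM over these 5 genes was 12.6, and 1.42 without MYB2-SRDX library 1. PAD3, which completes camalexin synthesis, was at 10.6, 9.75 and 10.9 FPKM in Col, 4.77, 4.88 and 5.46 in LBD29-OE and 31.9, 19.5 and 17.9 in MYB2-SRDX, and its groups did not overlap. CYP71A12, a cytochrome P450 of the same branch, was at 0.83, 2.39 and 2.78 FPKM in Col, 0.35, 0.66 and 0.09 in LBD29-OE and 426, 2.44 and 2.39 in MYB2-SRDX. Without MYB2-SRDX library 1, CYP71A12 in that line overlapped with Col. CBP60G, a calmodulin-binding regulator of salicylic acid synthesis, was at 0.24, 0.7 and 0.62 FPKM in Col, 0.13, 0.09 and 0.02 in LBD29-OE and 52.8, 0.68 and 0.73 in MYB2-SRDX. The same library carried PXMT1, an S-adenosylmethionine-dependent methyltransferase, at 1.81, 1.89 and 2.36 FPKM in Col, 0.27, 0.51 and 0.17 in LBD29-OE and 70.8, 2.13 and 3.61 in MYB2-SRDX. FMO1, a monooxygenase of systemic resistance, was at 1.02, 1.37 and 0.78 FPKM in Col, 0.56, 0.49 and 0.39 in LBD29-OE and 13.5, 2.31 and 3.16 in MYB2-SRDX, so that libraries 2 and 3 were above Col as well. NAC042, a NAC transcription factor known as a regulator of camalexin genes, behaved like FMO1, at 1.25, 1.28 and 1.51 FPKM in Col, 0.23, 0.46 and 0.73 in LBD29-OE and 57.4, 5.11 and 5.08 in MYB2-SRDX. In LBD29-OE all 6 of these genes were below every Col library.

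Glutathione transferases join glutathione to reactive compounds. The 4 listed ones that stood in both tables, of 27, were lower in LBD29-OE and higher in MYB2-SRDX, with medians of -1.41 and 3.65 in the authors' deposited tables. Without MYB2-SRDX library 1 the median ratio of MYB2-SRDX to Col mean FPKM fell from 13.0 to 1.54. GSTF6 was at 15.7, 16.2 and 15.2 FPKM in Col, 4.9, 4.56 and 3.75 in LBD29-OE and 730.3, 20.2 and 29.97 in MYB2-SRDX. GSTF7, its neighbour and near copy, was at 25.1, 33.1 and 32.6 FPKM in Col, 13.9, 15.8 and 9.06 in LBD29-OE and 806, 22.9 and 23.3 in MYB2-SRDX. GSTF7 was below every Col library in MYB2-SRDX libraries 2 and 3, and its higher group mean rests on library 1. GSTF3, at 0.3, 0.64 and 1.19 FPKM in Col, 0, 0.31 and 0.56 in LBD29-OE and 41.7, 0.96 and 1.14 in MYB2-SRDX, also rests on that library. GSTU11 does not: it was at 0.31, 0.53 and 1.05 FPKM in Col, 0.26, 0.17 and 0.22 in LBD29-OE and 1.8, 1.67 and 3.22 in MYB2-SRDX. The summed level of the 4 genes was 41.4 to 50.5 FPKM in Col, 13.6 to 20.8 in LBD29-OE, and 1580.0, 45.7 and 57.7 in MYB2-SRDX libraries 1, 2 and 3.

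A cluster of 4 FAD-binding Berberine family genes on chromosome 1 (AT1G26380, AT1G26390, AT1G26410 and AT1G26420), chosen after their values were seen, was high in the same library of MYB2-SRDX. Their summed level was 1.02 to 2.79 FPKM in Col, 0.13 to 0.52 in LBD29-OE and 164, 1.46 and 1.31 in MYB2-SRDX libraries 1, 2 and 3. The 4 genes are close copies, so reads may have been shared between them.

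Members named by their size and separation from Col included GLP9, a germin-like protein, at 14.04, 12.6 and 8.92 FPKM in Col, 3.24, 4.45 and 2.78 in LBD29-OE and 219, 36.3 and 40.1 in MYB2-SRDX. CYP706A1, a cytochrome P450, was at 3.06, 3.05 and 3.07 FPKM in Col, 0.59, 0.65 and 0.56 in LBD29-OE and 41.6, 5.49 and 8.2 in MYB2-SRDX. In both genes the 3 groups were separate, with library 1 the highest of MYB2-SRDX. MT2A, a metallothionein that binds metal ions, was at 45.2, 55.01 and 86.8 FPKM in Col, 18.7, 25.4 and 46.3 in LBD29-OE and 202, 152 and 175 in MYB2-SRDX, and its LBD29-OE library 3 lay inside the range of Col.

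Further members of the class, chosen after their values were seen, did not rest on MYB2-SRDX library 1. NADP-ME2, the cytosolic malic enzyme, was at 380.2, 353 and 435 FPKM in Col, 171, 184 and 206 in LBD29-OE and 905, 795 and 797 in MYB2-SRDX. GRP3S, a glycine-rich protein, was at 27.6, 34.5 and 37.4 FPKM in Col, 8.44, 13.1 and 18.1 in LBD29-OE and 166, 329 and 342 in MYB2-SRDX, a mean 21.2 times higher in MYB2-SRDX than in LBD29-OE; here library 1 was the lowest of its group. The dormancy/auxin associated gene AT2G33830 was the most abundant, at 467, 710 and 1044 FPKM in Col, 392, 423 and 246 in LBD29-OE and 1899, 1542 and 1494 in MYB2-SRDX. PYL6, an ABA receptor, was at 17.4, 19.3 and 26.2 FPKM in Col, 6.75, 6.7 and 5.17 in LBD29-OE and 21.8, 56.2 and 72.5 in MYB2-SRDX. In these 4 genes every MYB2-SRDX library lay above every Col library, and every Col library above every LBD29-OE library, with the exception of MYB2-SRDX library 1 for PYL6, which was within Col.

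**Figure D3:**
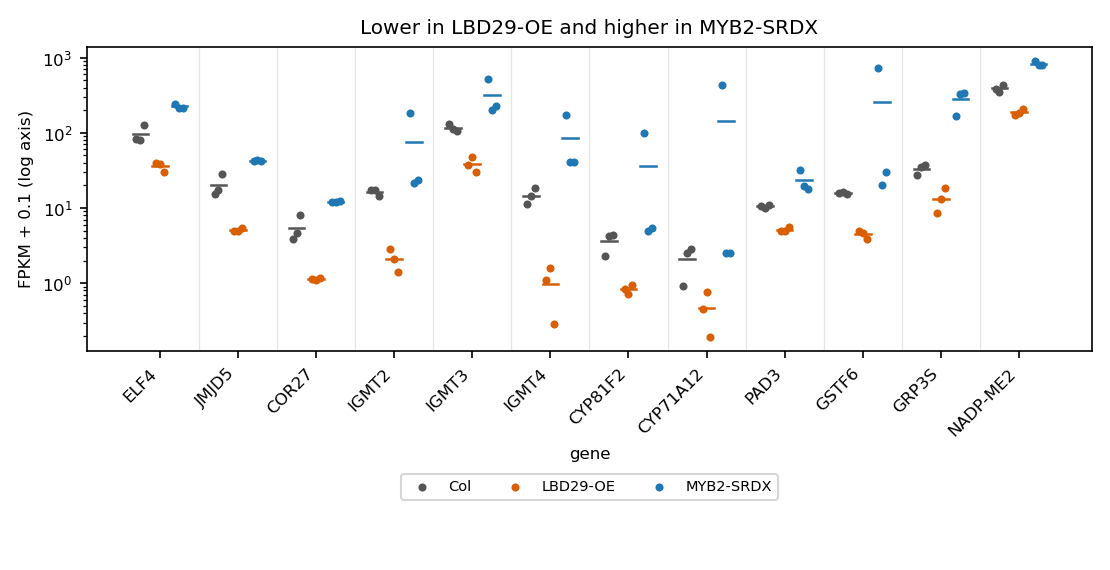
FPKM + 0.1 on a log axis for 12 genes lower in LBD29-OE and higher in MYB2-SRDX; points are the 3 libraries of each genotype in the order 1, 2, 3 and lines are arithmetic means. ELF4, JMJD5, COR27, GRP3S and NADP-ME2 are separate in all libraries, while CYP71A12 has MYB2-SRDX library 1 at 426 FPKM and the other two near Col.

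The 34 loci higher in LBD29-OE and lower in MYB2-SRDX include chaperones of the heat response, late embryogenesis abundant proteins, which protect cells as they dry, and genes of ABA signalling. In 33 of the 34, MYB2-SRDX libraries 2 and 3 were below every Col library, and in 29 every library of both lines was clear of Col. The highest group mean had a median of 5.55 FPKM and reached 269 FPKM.

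All 4 heat and chaperone genes found in both tables, of 28 listed, were higher in LBD29-OE and lower in MYB2-SRDX, and the authors' deposited tables give medians of 1.28 and -1.69 on the log2 scale. HSP70, an inducible folding chaperone, was at 144, 79 and 53.6 FPKM in Col, 250.4, 291 and 266 in LBD29-OE and 55.5, 40.1 and 30.1 in MYB2-SRDX. Its lines were far apart, 269 ± 20.4 against 41.9 ± 12.8 FPKM (SD, n = 3), whereas Col spread widely and its library 3 lay below MYB2-SRDX library 1. HSP90.1, the heat-inducible partner of HSP70, was at 50.6, 31.5 and 23.96 FPKM in Col, 91.4, 102 and 84.3 in LBD29-OE and 13.2, 14.4 and 11.1 in MYB2-SRDX. AT5G48570, an FKBP-type prolyl isomerase listed in RefSeq as ROF2, was at 27.6, 19.1 and 15.9 FPKM in Col, 48.9, 55.01 and 36.8 in LBD29-OE and 2.31, 7.34 and 6.84 in MYB2-SRDX. The small heat shock protein gene HSP18.2 was at 7.46, 8.16 and 3.71 FPKM in Col, 11.4, 12.5 and 15.1 in LBD29-OE and 1.62, 0.83 and 1.72 in MYB2-SRDX. For HSP90.1, AT5G48570 and HSP18.2 the 3 groups did not overlap. Hop3, which brings HSP70 and HSP90 together, was at 18.1, 15.4 and 12.4 FPKM in Col, 31.3, 37.2 and 25.9 in LBD29-OE and 3.2, 8.39 and 8.04 in MYB2-SRDX.

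Chaperone genes off the list were split between classes. Of the 9 further loci that RefSeq names as heat shock, chaperone, chaperonin-like or alpha-crystallin proteins, Hop3 included and gathered after their values were seen, 4 were in this class, 4 were lower in LBD29-OE and higher in MYB2-SRDX and 1 was lower in both lines. The 4 of this class were Hop3, AT1G07400, AT1G59860 and HSP23.6-MITO. In the opposite class AT1G72416, a DnaJ-domain chaperone gene, was at 7.79, 8.67 and 13.4 FPKM in Col, 4.11, 4.38 and 3.69 in LBD29-OE and 14.7, 23.5 and 27.1 in MYB2-SRDX. ACD32.1, an alpha-crystallin domain gene, was at 3.24, 3.56 and 5.02 FPKM in Col, 2.05, 1.71 and 1.58 in LBD29-OE and 7.18, 8.13 and 8.7 in MYB2-SRDX. In AT1G72416 and ACD32.1 the 3 groups did not overlap. AT4G21870, an HSP20-like gene, was at 4.07, 4.02 and 4.25 FPKM in Col, 1.57, 1.52 and 0.92 in LBD29-OE and 3.29, 9.78 and 16.5 in MYB2-SRDX, with MYB2-SRDX library 1 below Col. RbcX1, which RefSeq names a chaperonin-like protein, was at 1.21, 0.63 and 1.04 FPKM in Col, 0.07, 0.21 and 0.28 in LBD29-OE and 2.56, 1.59 and 2 in MYB2-SRDX, without overlap between groups. ATHSP22.0, the HSP20-like gene lower in both lines, was at 1.3, 0.55 and 0.14 FPKM in Col, 0.05, 0.05 and 0.41 in LBD29-OE and 0.05, 0.05 and 0.05 in MYB2-SRDX, close to the limit of detection in both lines.

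The late embryogenesis abundant gene LEA7, whose promoter is shown above, had the widest separation of the 3 such genes in the class. It was at 2.99, 3.48 and 2.03 FPKM in Col, 9.95, 9.78 and 21.4 in LBD29-OE and 0.17, 0.12 and 0.06 in MYB2-SRDX. LEA4-5 was at 3.38, 2.55 and 4.08 FPKM in Col, 7.36, 6.42 and 10.97 in LBD29-OE and 1.12, 0.37 and 0.32 in MYB2-SRDX. Together with AT3G02480, another member of the family, they were chosen after their values were seen, apart from LEA7. AT3G02480 was at 6.16, 4.93 and 3.4 FPKM in Col, 9.47, 9.75 and 30.7 in LBD29-OE and 5.48, 0.72 and 0.9 in MYB2-SRDX, and here MYB2-SRDX library 1 lay within Col and LBD29-OE library 3 was the highest. LBD29-OE library 3 was also the highest for LEA7 and LEA4-5.

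The ABA and dehydration list had 3 of its 41 genes in both tables, all higher in LBD29-OE and lower in MYB2-SRDX, with medians of 1.18 and -1.58 in the authors' deposited tables. The median ratio of MYB2-SRDX to Col mean FPKM was 0.336, and 0.212 without MYB2-SRDX library 1. They were LEA7, LTI65 and HAI3. LTI65, a dehydration-responsive gene induced by ABA, was at 0.95, 1.12 and 1.8 FPKM in Col, 3.33, 2.39 and 3.02 in LBD29-OE and 0.57, 0.52 and 0.46 in MYB2-SRDX. HAI3, an ABA-induced protein phosphatase that dampens the same pathway, was at 0.41, 0.44 and 0.28 FPKM in Col, 0.91, 0.88 and 0.79 in LBD29-OE and 0.22, 0.13 and 0.03 in MYB2-SRDX, under 1 FPKM throughout. In both genes the groups were separate. PYL6, the ABA receptor above, stood in the opposite class.

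QQS, a short gene known only from Arabidopsis that alters starch content, had the largest direct difference of this class (4.02 on the log2(FPKM + 1) scale), 44.9 ± 3.52 FPKM in LBD29-OE against 1.83 ± 0.193 FPKM in MYB2-SRDX (SD, n = 3), 24.6 times. Its libraries were at 9.94, 11.4 and 15.3 FPKM in Col, 42.5, 43.2 and 48.9 in LBD29-OE and 1.71, 1.72 and 2.05 in MYB2-SRDX. TFL1, which keeps shoot meristems from turning into flowers, was at 6.53, 6.45 and 5.63 FPKM in Col, 19.4, 19.6 and 16.5 in LBD29-OE and 3.27, 1.72 and 3.56 in MYB2-SRDX. AGL14, a MADS-box factor expressed in roots, was at 5.3, 4.66 and 2.35 FPKM in Col, 10.9, 8.78 and 12.7 in LBD29-OE and 0.99, 2.03 and 1.82 in MYB2-SRDX. None of these 3 genes had overlapping groups. AT1G07500, listed in RefSeq as the cell cycle inhibitor gene SMR5 and chosen after its values were seen, was listed at 0 in all 3 MYB2-SRDX libraries, against 7.35, 2.46 and 2.93 FPKM in Col and 7.64, 19.02 and 9.25 in LBD29-OE. Depth is unknown, so no fold is given for it.

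**Figure D4:**
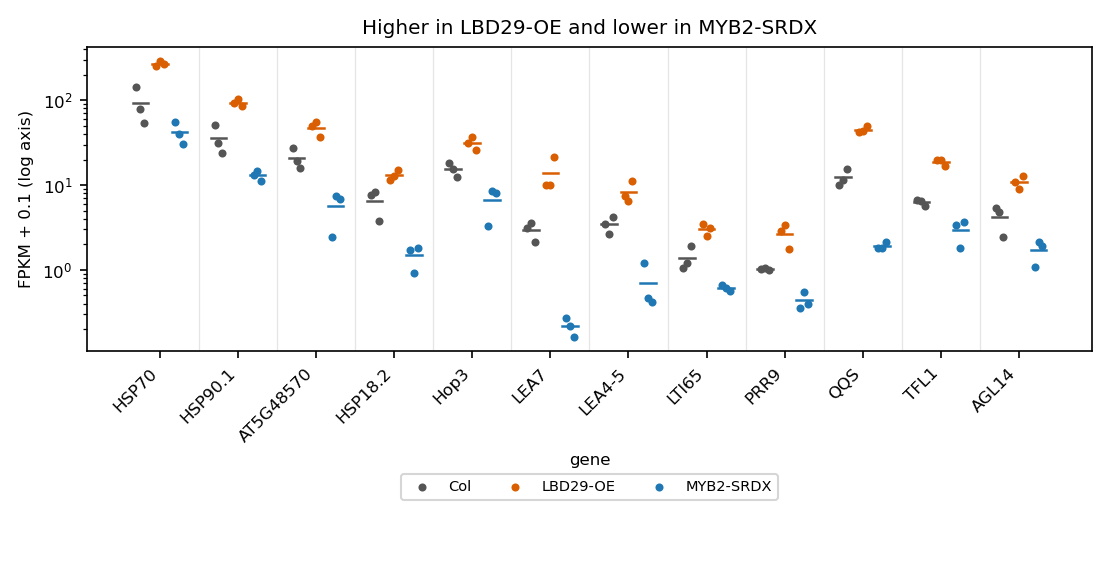
FPKM + 0.1 on a log axis for 12 genes higher in LBD29-OE and lower in MYB2-SRDX; points are the 3 libraries of each genotype in the order 1, 2, 3 and lines are arithmetic means. In each of these 12 genes the 3 LBD29-OE libraries lie above the 3 MYB2-SRDX libraries, and Col lies between them apart from HSP70, where Col library 3 is below MYB2-SRDX library 1.

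The 53 loci lower in both lines include iron uptake genes, transporters of chloride, sodium, nitrate and phosphate, and NAC transcription factors. Here the choice of loci does not fix which line is higher, because both were chosen for the same direction against Col. The direct test is still limited, since it uses the libraries that chose the loci. Its adjustment over the 227 loci also takes in the calls of the opposite classes. Of the 53, 7 were higher and 1 was lower in LBD29-OE than in MYB2-SRDX (limma, adjusted p under 0.05), beside 134 of all 227 loci (59.0%). Over both same-direction classes 11 of 81 loci were called, and 14 had an unadjusted p under 0.05. When the 81 loci were fitted and adjusted alone, 7 of the 11 remained and no other was added.

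Iron uptake in Arabidopsis begins with reduction of ferric iron at the root surface by FRO2 and import by IRT1, helped by secreted coumarins that CYP82C4 modifies. All 3 listed iron deficiency genes found in both tables, of 28, were lower in both lines, at a median log2 fold change in the authors' deposited tables of -1.40 for LBD29-OE and -1.92 for MYB2-SRDX, beside -1.48 and -1.81 for the class. IRT1 was at 151, 150.2 and 185 FPKM in Col, 47.5, 60.6 and 42.7 in LBD29-OE and 13.4, 85.9 and 93.3 in MYB2-SRDX. MYB2-SRDX library 1 had the lowest IRT1 value of all 9 libraries, below every LBD29-OE library, and libraries 2 and 3 were above every one of them. The difference between the lines, LBD29-OE minus MYB2-SRDX, was 0.05 on the log2(FPKM + 1) scale (95% confidence interval -1.46 to 1.55) and turned to -0.98 without LBD29-OE library 2 and MYB2-SRDX library 1 (limma, adjusted p = 0.00446). FRO2 was at 26.5, 26.01 and 30.5 FPKM in Col, 12.4, 15.7 and 11.4 in LBD29-OE and 2.18, 8.01 and 8.01 in MYB2-SRDX, so that LBD29-OE was the less reduced line in every library. Its direct difference was 1.14 (SE 0.396; limma, adjusted p = 0.0359), and 0.52 without those libraries, where the adjusted p was 0.0536. The FRO2 call was kept under 7 of 15 alternatives, with adjusted p from 0.00352 to 0.112, and leaving out any one Col or LBD29-OE library ended it. CYP82C4 was at 19.5, 15.1 and 18.6 FPKM in Col, 4.27, 6.51 and 9.38 in LBD29-OE and 1.62, 6.14 and 6.29 in MYB2-SRDX, with a direct difference of 0.53 (95% confidence interval -0.46 to 1.52). MYB2-SRDX library 1 was the lowest of its group for all 3 iron genes. Outside the list, bHLH11, a transcription factor of the iron response chosen after its values were seen, was at 6.18, 7.43 and 7.1 FPKM in Col, 3.29, 3.34 and 3.45 in LBD29-OE and 1.75, 3.05 and 3.06 in MYB2-SRDX.

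Both listed genes of ion loading into the stele, the root's vascular core, that stood in both tables, of 21, were lower in both lines. SLAH1, an anion channel homologue that takes part in chloride loading, was at 48.1, 44.7 and 48.3 FPKM in Col, 18.7, 17.8 and 11.4 in LBD29-OE and 13.7, 16.6 and 15.7 in MYB2-SRDX. HKT1, which withdraws sodium from the xylem, was at 4.81, 5.46 and 4.54 FPKM in Col, 2.25, 2.86 and 0.99 in LBD29-OE and 1.8, 1.66 and 0.83 in MYB2-SRDX. Both lines lay clear below Col in these genes, and they overlapped each other. The direct difference was 0.03 for SLAH1 (95% confidence interval -0.47 to 0.53) and 0.29 for HKT1 (-0.36 to 0.94).

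The listed nitrate and phosphate transporter genes that stood in both tables were low in all groups. The nitrate transporter gene NRT2:1, the 1 of 35 listed nitrate and carbon-nitrogen genes in both tables, was at 0.27, 1.09 and 0.44 FPKM in Col, 0.15, 0.2 and 0.11 in LBD29-OE and 0.07, 0.02 and 0.04 in MYB2-SRDX. The phosphate transporter gene PHT1;9, the 1 of 22 listed phosphate genes, was at 0.58, 0.31 and 0.45 FPKM in Col, 0.1, 0.07 and 0.07 in LBD29-OE and 0.31, 0.02 and 0.05 in MYB2-SRDX. At these levels, and with depth unknown, a difference between the lines was not detectable with all 3 groups in the fit: the 95% confidence intervals of the direct difference were -0.25 to 0.54 for NRT2:1 and -0.33 to 0.23 for PHT1;9. With the LBD29-OE and MYB2-SRDX libraries alone in the fit, NRT2:1 passed the threshold (0.14; limma, adjusted p = 0.0269). Other phosphate transporter genes, chosen after their values were seen, were divided between classes. In the authors' deposited tables PHT1;2 was at log2 fold changes of -1.13 in LBD29-OE and -2.74 in MYB2-SRDX. PHT3;2 was at -1.65 in LBD29-OE and 1.66 in MYB2-SRDX.

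The loci of this class that differed between the lines were mostly lower in MYB2-SRDX. They were under 10 FPKM or without a gene symbol, FRO2 excepted, and were named after their values were seen. NAC074, a NAC transcription factor, was at 6.45, 4.93 and 7.14 FPKM in Col, 2.57, 2.65 and 3.45 in LBD29-OE and 1.24, 0.59 and 0.48 in MYB2-SRDX, a direct difference of 1.15 (SE 0.224; limma, adjusted p = 0.00223). AT4G01390, a TRAF-like protein gene, was at 32.1, 20.6 and 14.96 FPKM in Col, 10.3, 7.68 and 11.5 in LBD29-OE and 3.68, 2.95 and 2.14 in MYB2-SRDX, a direct difference of 1.46 (SE 0.305; limma, adjusted p = 0.0032). In both genes every LBD29-OE library lay between Col and MYB2-SRDX. PUP10, a purine permease gene, was at 1.28, 1.44 and 1.62 FPKM in Col, 0.41, 0.49 and 0.67 in LBD29-OE and 0.05, 0.03 and 0.08 in MYB2-SRDX, a direct difference of 0.53 (SE 0.118; limma, adjusted p = 0.00457). NAC6, a NAC factor known from leaf senescence, was at 3.21, 3.86 and 6.63 FPKM in Col, 2.09, 2.27 and 1.66 in LBD29-OE and 0.83, 0.47 and 0.73 in MYB2-SRDX, with a difference of 0.84 (SE 0.245; limma, adjusted p = 0.0171, and 0.0624 over the 81 loci alone). NAC074, AT4G01390, PUP10 and the RING/U-box gene AT4G09110 (difference 0.40; limma, adjusted p = 0.0116) were called under all 15 alternatives. The kinase gene CIPK25 (0.58; limma, adjusted p = 0.0364, and 0.118 over the 81 loci alone) was called under 8 of them. The RING/U-box gene AT2G47560 was the 1 locus of the class higher in MYB2-SRDX, with a difference of -0.57 (SE 0.215; limma, adjusted p = 0.0492, and 0.176 over the 81 loci alone). It was called under 5 of 15 alternatives.

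The 28 loci higher in both lines were mostly at low levels, with a median highest group mean of 2.32 FPKM and 2 loci at 10 FPKM or more. Of the 28, 2 were higher and 1 was lower in LBD29-OE than in MYB2-SRDX by the direct test (limma, adjusted p under 0.05), beside 134 of all 227 loci (59.0%). The genes below, the green tissue markers excepted, were chosen after their values were seen. The chitinase family gene AT2G43590 was the most abundant, at 104, 91.4 and 93.1 FPKM in Col, 380.2, 432 and 694 in LBD29-OE and 1473, 275 and 243 in MYB2-SRDX. Both lines were above every Col library, and MYB2-SRDX library 1 was the highest of all. Its direct difference was 0.07 (95% confidence interval -1.39 to 1.53), and 0.99 without LBD29-OE library 2 and MYB2-SRDX library 1 (limma, adjusted p = 0.0193), where LBD29-OE was the higher line.

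Loci that RefSeq names as thioredoxin superfamily proteins numbered 5, and all 5 were higher in both lines. AT4G15660 was at 0.06, 0.21 and 0.1 FPKM in Col, 4.22, 3.27 and 4.06 in LBD29-OE and 1.23, 1.6 and 1.69 in MYB2-SRDX, and LBD29-OE was the higher line by 0.95 (SE 0.1596; limma, adjusted p = 0.000977). AT4G15690, which lies close to it on chromosome 4, was at 0.3, 0.46 and 0.22 FPKM in Col, 1.22, 1.23 and 0.88 in LBD29-OE and 2.18, 2.49 and 2.1 in MYB2-SRDX, and here LBD29-OE was the lower line by the same test, with a difference of -0.63 (SE 0.148; limma, adjusted p = 0.00613). The order of the lines was thus opposite in these neighbours, although it turned to 0.30 for AT4G15690 with the libraries scaled to equal sums (limma, adjusted p = 0.257). AT4G15680, the third gene of that cluster, was at 0.56, 0.36 and 0.35 FPKM in Col, 1.59, 2.19 and 0.9 in LBD29-OE and 2.82, 2.71 and 1.95 in MYB2-SRDX. The cluster's genes are similar, so read assignment between them is uncertain. ROXY2, a glutaredoxin of the same superfamily, was at 1.27, 1.55 and 2.39 FPKM in Col, 4.06, 5.31 and 4.18 in LBD29-OE and 3.18, 4.62 and 3.31 in MYB2-SRDX, with a direct difference of 0.24 (95% confidence interval -0.27 to 0.74). AT2G30540 was at 0.36, 0.92 and 1.12 FPKM in Col, 4.48, 4.23 and 3.31 in LBD29-OE and 4.04, 1.89 and 1.9 in MYB2-SRDX. WCRKC1, which RefSeq names a thioredoxin without that superfamily name, was in the class lower in LBD29-OE and higher in MYB2-SRDX, at 2.25, 2.28 and 3.79 FPKM in Col, 0.96, 1.14 and 0.83 in LBD29-OE and 3.57, 9.54 and 8 in MYB2-SRDX.

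The largest direct difference among loci of the same direction was that of CYP71B5, a cytochrome P450. It was at 0.31, 0.08 and 0.22 FPKM in Col, 2.37, 3.97 and 3.25 in LBD29-OE and 0.69, 0.33 and 0.39 in MYB2-SRDX, a difference of 1.503 (SE 0.188; limma, adjusted p = 0.000212; higher in LBD29-OE in every library). CYP71B5 and AT4G15660 were called under all 15 alternatives.

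**Figure D5:**
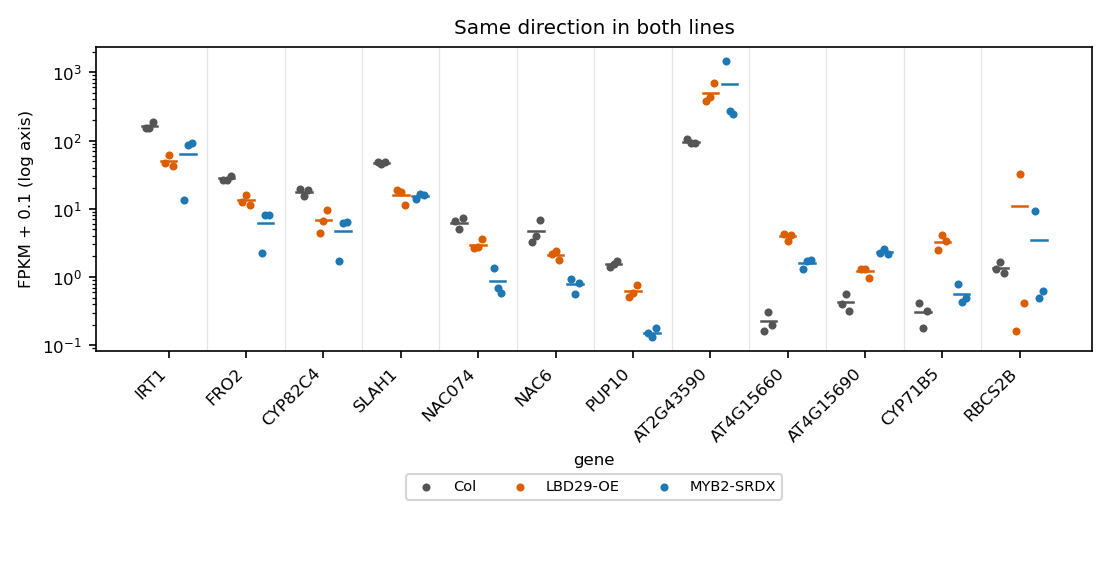
FPKM + 0.1 on a log axis for 12 genes placed by the authors' fold changes in the same direction in both lines; points are the 3 libraries of each genotype in the order 1, 2, 3 and lines are arithmetic means. NAC074, NAC6 and PUP10 step down from Col to LBD29-OE to MYB2-SRDX, while RBCS2B is above Col in LBD29-OE library 2 and MYB2-SRDX library 1 only.

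Where photosynthesis marker genes were placed above Col in this dark-grown root material, the placing rested on single libraries. Of 20 listed green tissue markers 3 stood in both tables. RBCS2B, a small subunit gene of the carbon-fixing enzyme Rubisco, was at 1.21, 1.57 and 1.05 FPKM in Col, 0.06, 32 and 0.32 in LBD29-OE and 9.17, 0.4 and 0.52 in MYB2-SRDX. RBCS1B, its neighbour, was at 2.72, 2.28 and 0.86 FPKM in Col, 0, 16.5 and 0.2 in LBD29-OE and 15.7, 1.02 and 0.46 in MYB2-SRDX. LHCB2.2, a light-harvesting protein gene placed as higher in LBD29-OE and lower in MYB2-SRDX, was at 0.82, 1.64 and 1.69 FPKM in Col, 0, 10.9 and 1.02 in LBD29-OE and 0.75, 0.08 and 0 in MYB2-SRDX. All 3 MYB2-SRDX libraries of LHCB2.2 were below every Col library. Without LBD29-OE library 2 and MYB2-SRDX library 1, the group means of RBCS1B and RBCS2B were below the Col mean in both lines. The summed level of the 3 markers was 3.6 to 5.49 FPKM in Col, 0.06, 59.4 and 1.54 in LBD29-OE, and 25.7, 1.5 and 0.98 in MYB2-SRDX, each in the order of libraries 1, 2 and 3. The libraries with high green markers are the same that stand apart above, and their part in the other results was not tested.

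Of 25 gene lists, 12 had at least 1 of the 227 loci and 13 had none, and the 34 distinct list members are all described above. Among those with 0 were auxin (39 genes), lateral root and LBD genes (38), cytokinin and purine permease genes (36), jasmonate (32), cell separation and cell wall (32), endodermis and suberin (30), root hair (22) and flavonoid synthesis (15). PUP10, described above, is not on the purine permease list. A list with 0 members says that none of its genes was called in both lines, not that none was called in one.

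The authors' annotation named a transcription factor family for 13 of the 227 loci, 5 in the class of 112, 3 in the class of 34, 4 of the 53 and 1 of the 28. In the class of 34 they were AGL14, the bHLH gene AT2G22760 and MYB96, an ABA-responsive MYB factor. MYB96, chosen after its values were seen, was at 2.07, 2.66 and 1.7 FPKM in Col, 4.01, 3.49 and 5.86 in LBD29-OE and 0.66, 1.01 and 0.82 in MYB2-SRDX. Those of the class of 112 were AGL46, DREB2C, NAC042, AT4G38340 and AT5G27810. For DREB2C the authors' log2 fold changes were -1.58 in LBD29-OE and 1.12 in MYB2-SRDX. Those of the 53 were AT3G53600, NAC074, bHLH11 and NAC6, and that of the 28 was AT3G10113. Genes of the 227 lay next to each other, with at most 1 other protein-coding gene between, in 12 runs holding 29 loci. The IGMT run, the GSTF6 and GSTF7 pair and the thioredoxin run described above are among them, and each of those named was of 1 class. Not all runs were: AT1G22890 with AT1G22900, and LTI65 with CYP96A4 and AT5G52330, mixed classes. Members of a run may share reads or a region, and they are not independent observations.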

How the data were processed

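Random-primed cDNA libraries were made from total RNA of roots and read on Illumina machines, per the labels' protocols. The authors deposited FPKM per library and group mean FPKM, per the file headers, in 1 table per line. A log2 fold change from the authors stands beside each gene, per the file headers. Each gene also has a p-value, and its adjusted form, the Q-value, from the authors. The genome build was TAIR10, per the submitters' processing notes, while no source used here names the aligner, the counting tool or the test. Checked on the values, Col FPKM were identical between the tables, and all listed genes passed an absolute log2 of 1 and a Q-value of 0.001. FPKM steps did not give whole reads (9.09 to 26.0% of usable loci at equal depth, tolerance 0.1 reads, where chance gives 20%), so depth is unknown and no interval or test that needs reads was made.

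The 227 loci were joined by identifier, and all 227 matched RefSeq (TAIR10.1), which gave products and promoters; 113 symbols came from the files. The lines were compared with limma 3.58.1 (R 4.3.3; moderated test with a mean trend) on log2(FPKM + 1), so that a difference understates that of low genes. Columns were assigned to MYB2-SRDX without replicate numbers. Alternatives changed the pseudocount, the filter, the groups in the fit, the scaling and the libraries. On simulated data with the spread of these 227 loci and 60 of them changed, the same fit recovered 57.7% of loci changed by a log2 of 1. It recovered 76.8% of those changed by 2, with 3.61% false calls. The simulated spread of a locus was normal and equal in all 9 libraries, so a single library far above its group was not simulated. These rates do not describe loci that rest on 1 library. The rule for named genes took, per class, up to 8 loci with a symbol, a highest mean of at least 10 FPKM and both lines clear of Col; same-direction loci past the threshold; loci with 1 library far above the next; and all list members. Loci outside it are said to be chosen after their values were seen. Members, classes and lists were chosen with earlier results of these data known. ACGTG and GAANNTTC were added to the motifs after the data were seen. Figures were drawn with matplotlib.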

Additional observations from a re-analysis of the deposited data

How the results depend on the processing

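Against 42 loci higher and 92 lower in LBD29-OE than in MYB2-SRDX, the counts stayed within 1.5 times under a pseudocount of 0.1, a filter of 1 FPKM, a fit of the lines alone and the omission of any library (39 to 44 higher, 78 to 104 lower). Scaling the libraries to equal sums gave 70 and 50, since it multiplied LBD29-OE libraries by 1.72 to 1.98 and MYB2-SRDX libraries by 0.394 to 0.786. The sums were over selected loci, so that scaling can take out part of the difference for which they were chosen. The 11 calls among same-direction loci became 37 under that scaling, 7 to 15 when 1 library was left out (7 without LBD29-OE library 1) and 7 when the 81 loci were fitted and adjusted alone, an alternative chosen after seeing the data. Without LBD29-OE library 2 and MYB2-SRDX library 1 there were 16, of which 8 were among the 11. Loci with separate lines numbered 48 above and 112 below with all libraries, and 56 and 128 without those libraries. Leaving libraries out can only keep or raise such counts, so nothing is read from the rise.

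With folds recomputed from mean FPKM at a pseudocount of 1 and counted where both reach 2-fold, the classes held 36 (lower in LBD29-OE, higher in MYB2-SRDX), 9 (the reverse), 12 (lower in both) and 6 (higher in both) loci, since low loci cannot reach 2-fold. Leaving out 1 library gave 26 to 36, 8 to 12, 11 to 13 and 3 to 7. Without both libraries that stand apart they held 24, 10, 11 and 4, and with a pseudocount of 0.1 and without them, chosen after seeing the data, 54, 29, 50 and 18. Of these 50 loci lower in both, 45 were in that class by the authors' fold changes, and the rest came from another class. At a pseudocount of 0.1 with all libraries the classes held 100, 32, 44 and 22.

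The direct difference of IRT1 was 0.05, ran from -0.84 (without MYB2-SRDX library 1) to 0.52 when 1 library was left out, and was -0.98 without both libraries. Under scaling to equal sums AT2G47560 turned to 0.84 and AT4G15690 to 0.30, by the same factors. Among the other values of named loci 979 were counted as unchanged, 31 lost the threshold (AT2G47560, CIPK25, FRO2 and NAC6) and 13 gained it. A further 43 moved by more than the spread without turning. The threshold was followed for same-direction loci only, where a change of sign without a call also counted as unchanged. Opposite-direction loci counted as unchanged when they moved by less than the spread, on whichever side of the threshold. GSTF7, counted so, went from an adjusted p of 0.111 to 0.0118 without both libraries (limma).

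The digits that end the library columns do not pair the samples: the correlations of same-digit deviations were -0.15 to 0.05. With the digit as a replicate block there were 42 higher and 90 lower calls and 10 among same-direction loci. Depth is unknown, and loci under 1 FPKM carry the least certain folds.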
